A study of Bos taurus and Sus scrofa with 6 samples.

Results

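Cohesin is the ring-shaped protein complex that holds sister chromatids together from DNA replication until they separate. In dividing body cells the ring is built from SMC1A, SMC3, the kleisin RAD21 and 1 of the stromal antigen proteins STAG1 and STAG2. Germ cells that enter meiosis make paralogs of most of these parts, namely SMC1B in place of SMC1A, REC8 and RAD21L1 in place of RAD21, and STAG3 in place of STAG1 or STAG2, while SMC3 is used in both rings. Meiotic cohesin forms the base of the chromosome axis on which homologous chromosomes pair. Mice that lack SMC1B, STAG3, REC8 or, in males, RAD21L1 are infertile.

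The 9 subunits were examined in single-cell RNA-sequencing libraries of prepubertal testes of 3 Holstein cattle at an age of 4.5 months and 3 pigs of mixed breed at 3 months. The labels give no treatment and no genetic change for any animal, and 1 library was made from the dissociated testis cells of each, with about 8000 cells loaded. The labels repeat a testis number within each species, and each library was counted as 1 animal because the study's methods give 3 animals per species. The members were chosen by gene symbol as 4 meiotic subunits (SMC1B, STAG3, RAD21L1, REC8) and 5 mitotic subunits (SMC1A, SMC3, RAD21, STAG1, STAG2). All 9 were listed in both gene tables, among 19994 genes in cattle and 22694 in pig, and all 9 reached the minimum of 10 counts for testing in both species. RAD21L1 reached it only through germ-like cells, which held 12 of its 13 UMIs in cattle and 13 of its 14 in pig, so its values are given as a description. The same holds for STAG3 in pig, with 6 UMIs in the other cells. The values are counts of unique molecular identifiers (UMIs), each of which marks 1 captured RNA molecule at its 3′ end. A level is given as CPM, the UMIs of a gene per 1000000 UMIs of the same sum of cells, and CPM of different genes were not ranked against each other.

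The cell names were rebuilt from marker genes, and a cluster is called germ-like, Sertoli-like and so on. Germ-like cells numbered 82, 217 and 218 in cattle 1, 2 and 3 among 17482 cells kept, and 642, 215 and 701 in pig 1, 2 and 3 among 9206. The germ cell markers together reached 1792 to 2576 CPM in the germ-like sums of cattle against 54.3 to 72.7 CPM in the other cells, and 972 to 1316 CPM against 47.2 to 55.3 CPM in pig. All 7 germ markers of the pig table had UMIs in each pig's germ-like cells, and 7 or 8 of 8 in cattle. Leydig cell markers, which germ cells should lack, summed to 520 to 6157 CPM in cattle germ-like cells and to 84.9 to 841 CPM in pig germ-like cells, and in both species the highest value was that of animal 1. Every contrast was also fitted without animal 1, and calls that changed are given with the results. Germ-like cells contributed 292673, 1306799 and 3732407 UMIs in cattle and 2043475, 3416994 and 11611549 in pig, so that cattle 1 and pig 1 give the least precise values. Pig 1 had fewer than 20 endothelial-like, myoid-like and lymphocyte-like cells, and no level is given for these. A pig cluster of 1090 cells, of which 1047 came from pig 1, was led by Sertoli genes such as INHA but passed only 2 Sertoli markers and stayed unnamed.

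The promoters of 3 members are shown because these genes carry main contrasts: SMC1B was higher in germ-like cells of both species, REC8 differed between species, and SMC1A is the mitotic partner of SMC1B. Each is the 250 bases before the gene start in the RefSeq annotation of Sscrofa11.1, the build of the pig files, written 5′ to 3′ on the gene's strand. Capitals mark GCGGGA or its reverse complement TCCCGC, the core letters of E2F sites, and CACGTG, the E-box, was also searched on both strands. SMC1B lies at chr5:3976098-4067148 on the plus strand, REC8 at chr7:75118743-75127759 on the minus strand and SMC1A at chrX:46143738-46202187 on the minus strand.
SMC1B, chr5:3975848-3976097: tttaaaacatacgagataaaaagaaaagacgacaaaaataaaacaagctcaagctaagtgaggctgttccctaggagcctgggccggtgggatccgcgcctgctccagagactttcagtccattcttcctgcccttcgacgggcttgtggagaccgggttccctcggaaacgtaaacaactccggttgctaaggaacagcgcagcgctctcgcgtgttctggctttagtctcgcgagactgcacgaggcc
REC8, chr7:75127760-75128009: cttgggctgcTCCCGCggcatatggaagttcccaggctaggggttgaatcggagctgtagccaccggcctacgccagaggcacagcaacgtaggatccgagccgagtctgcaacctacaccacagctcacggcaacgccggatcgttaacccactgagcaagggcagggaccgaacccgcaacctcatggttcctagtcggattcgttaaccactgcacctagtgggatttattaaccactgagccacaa
SMC1A, chrX:46202188-46202437: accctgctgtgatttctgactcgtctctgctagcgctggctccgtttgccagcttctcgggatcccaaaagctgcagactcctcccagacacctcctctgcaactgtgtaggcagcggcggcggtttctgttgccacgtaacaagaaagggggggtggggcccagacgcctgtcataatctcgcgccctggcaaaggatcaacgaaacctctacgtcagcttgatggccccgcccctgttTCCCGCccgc
The E2F letters were found in the windows of REC8 and SMC1A and in none of the other 6 windows searched, and they occur in 25.4% of all 19556 pig promoters of this length. The search took no account of repeated DNA, so letters and CG counts that lie in a repeat are included. The E-box letters were in none of the 8 member windows searched and occur in 6.39% of all promoters. The dinucleotide CG occurred 18 times in the SMC1B window, 16 times each in those of REC8 and SMC1A and 0 times in that of RAD21L1, against a median of 12 over all pig promoters. SMC1B and SMC1A each share their start region with a gene on the opposite strand, RIBC2 at a distance of 74 bases from SMC1B and RIBC1 at 26 bases from SMC1A. The genome used was that of pig, and no cattle positions are given.

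SMC1B, the meiotic partner of SMC3, was the meiotic subunit with the clearest contrast in both species. In cattle it reached 167, 230 and 212 CPM in the germ-like cells of animals 1, 2 and 3 and 0, 1.37 and 0.993 CPM in all other cells of the same animals. In pig it reached 193, 159 and 190 CPM in germ-like cells and 2.16, 5.82 and 7.11 CPM in the others. The groups did not overlap in either species, and every germ-like sum was far above every other sum. The log2 fold change was 6.55 (SE 0.50, adjusted p = 2.09e-05, n = 3 against 3) in cattle, while in pig it was 4.76 (SE 0.42, adjusted p = 0.000409). Both come from the quasi-likelihood test of edgeR, with p adjusted after Benjamini and Hochberg over all genes tested.

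**Figure D1:**
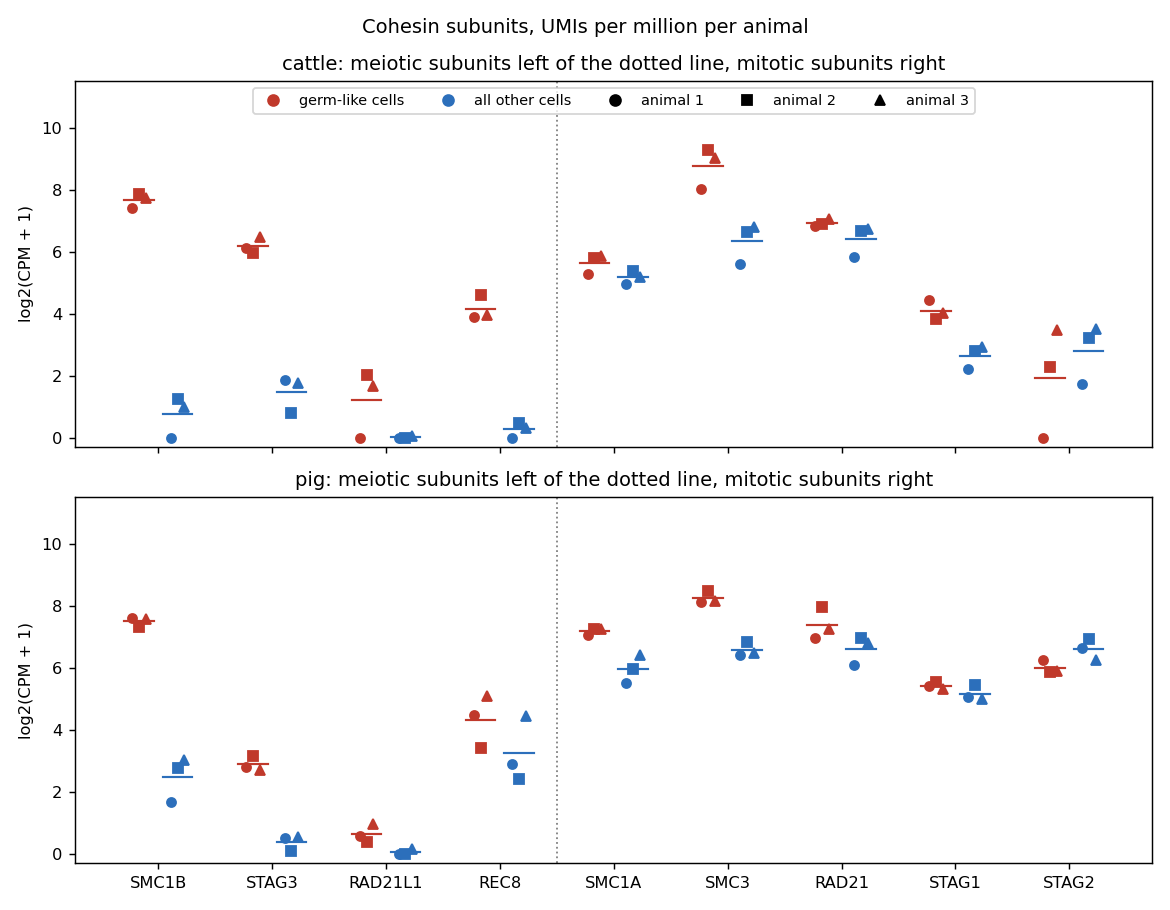
Levels of the 9 cohesin subunits as log2(CPM + 1) in the summed germ-like cells (red) and all other cells (blue) of each animal, with cattle above and pig below, 1 symbol per animal, and the mean of the 3 animals as a short line. SMC1B and STAG3 are higher in germ-like cells without overlap in both species, REC8 is so in cattle and overlaps in pig, and the mitotic subunits lie closer together.

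STAG3, the meiotic stromal antigen subunit, was likewise higher in germ-like cells of both species. Its levels were 68.3, 61.2 and 88.4 CPM in cattle germ-like cells and 2.62, 0.716 and 2.40 CPM in other cells. In pig the levels were 5.87, 7.90 and 5.51 CPM in germ-like cells and 0.432, 0.0639 and 0.438 CPM in other cells, where the 3 sums held 6 UMIs. The groups did not overlap in either species. The log2 fold change was 4.24 (SE 0.48, adjusted p = 0.000111) in cattle by edgeR's quasi-likelihood test. In pig it was 4.21 (SE 0.80), a description, since pig STAG3 passed the count minimum only through germ-like cells.

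REC8, the kleisin that keeps sister chromatids joined through the first meiotic division, separated the species. In cattle its levels were 13.7, 23.0 and 14.5 CPM in germ-like cells and 0, 0.391 and 0.240 CPM in other cells, with a log2 fold change of 4.83 (SE 0.60, adjusted p = 0.000177, edgeR). In pig they were 21.0, 9.66 and 32.9 CPM in germ-like cells and 6.48, 4.35 and 20.7 CPM in other cells. Each pig was higher in its germ-like cells, but the other cells of pig 3 stood above the germ-like cells of pig 2, and the groups overlapped. The log2 fold change in pig was 0.70 (SE 0.67, adjusted p = 0.441, edgeR), and in a model that also fits each animal, a replicate block, it was 0.77 and not called either (adjusted p = 0.0706).

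RAD21L1, the second meiotic kleisin, was detected with few UMIs. The germ-like cells of cattle 1, 2 and 3 held 0, 4 and 8 UMIs of it and all other cattle cells 1. In pig the germ-like cells held 1, 1 and 11 UMIs and all other cells 1. Per UMI sequenced this is 107 times higher in cattle germ-like cells (95% counting interval 15.9 to 4582) and 20.6 times higher in pig (3.10 to 877), with intervals that cover counting error only.

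The 5 mitotic subunits were found in germ-like and other cells alike. SMC3, the subunit that both rings share, was the only one of them called higher than in other cells in both species. Its levels were 256, 618 and 522 CPM in cattle germ-like cells and 47.5, 98.6 and 109 CPM in the other cells. The pig levels were 279, 356 and 284 CPM against 83.8, 111 and 88.7 CPM. No germ-like sum fell into the range of the other cells. The log2 fold change was 1.34 (SE 0.40, adjusted p = 0.0192) in cattle, while in pig it was 1.34 (SE 0.24, adjusted p = 0.00368) by edgeR. The cattle call was lost without cattle 2 (1.28, adjusted p = 0.111) and without cattle 3 (1.501, adjusted p = 0.0593).

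SMC1A, the mitotic paralog of SMC1B, was at 37.6, 54.3 and 56.5 CPM in cattle germ-like cells and 30.1, 40.6 and 35.3 CPM in the other cells. The pig levels were 131, 150 and 151 CPM in germ-like cells and 44.5, 61.7 and 83.5 CPM in the other cells, without overlap. Pig SMC1A was called higher in germ-like cells at 0.84 (SE 0.29, adjusted p = 0.0476, edgeR). That call sits at the threshold and was lost whenever 1 of the 3 pigs was left out (adjusted p = 0.149 without pig 1, 0.198 without pig 2 and 0.0615 without pig 3). In cattle the fitted change was -0.59 (SE 0.27, adjusted p = 0.0968, edgeR), although each animal's CPM was higher in germ-like cells, and it was 0.53 (adjusted p = 0.111) by library size alone.

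This difference in sign comes with the scaling of the sums. TMM, which centres the bulk of genes, gave germ-like sums the higher factors, with a log2 gap of 1.14 for cattle and 0.35 for pig, and scaling by library size alone moved the median of all genes from -0.16 to 0.94 in cattle and from -0.08 to 0.26 in pig. For RAD21, the mitotic kleisin, the levels were 113, 118 and 132 CPM in cattle germ-like cells and 55.7, 100 and 104 CPM in the others, with a fitted change of -0.64 (SE 0.28, adjusted p = 0.0875, edgeR) after TMM and 0.48 (adjusted p = 0.165) by library size alone. Pig RAD21 was at 124, 245 and 149 CPM in germ-like cells and 66.5, 122 and 109 CPM in the others (0.44, SE 0.31, adjusted p = 0.294, edgeR). Library size alone and DESeq2's size factors left the sign of the germ-like contrast unchanged for SMC1B, REC8 and SMC3 in both species and for STAG3 in cattle. RAD21L1 in both species and STAG3 in pig are left out here, since they passed the count minimum only through germ-like cells.

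Of the stromal antigen subunits of the mitotic ring, STAG2 was called lower in pig germ-like cells and STAG1 was not called, and the pair was not tested against each other. STAG2 was at 74.9, 57.7 and 58.3 CPM in pig germ-like cells and 98.1, 121 and 75.5 CPM in the others, lower in each of the 3 pigs and without overlap, by a narrow margin between pig 1 and pig 3. It was the only subunit called lower, at -0.97 (SE 0.28, adjusted p = 0.0255, edgeR), and the call was lost by library size alone (-0.63, adjusted p = 0.106) and whenever a pig was left out (adjusted p = 0.0675 without pig 1, 0.206 without pig 2 and 0.0732 without pig 3). Pig STAG1 was at 41.1, 45.1 and 39.0 CPM in germ-like and 32.0, 42.0 and 31.1 CPM in other cells, and its change of -0.09 (SE 0.26, adjusted p = 0.803, edgeR) became 0.25 by library size alone. In cattle both genes had few UMIs. STAG1 was at 20.5, 13.01 and 15.3 CPM in germ-like and 3.60, 5.86 and 6.54 CPM in other cells, and STAG2 at 0, 3.83 and 10.2 CPM against 2.29, 8.20 and 10.2 CPM. Neither was called in cattle (0.39, adjusted p = 0.432, and -1.23, adjusted p = 0.166, edgeR), and STAG1 was called by library size alone (1.497, adjusted p = 0.00918).

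In cattle SMC1B, STAG3 and REC8 reached the minimum of 10 counts in the other cells alone. Of these 3, 3 were called higher in germ-like cells, where 23.2% of all 14202 genes tested were, and so was 1 of 5 mitotic subunits. By edgeR 0 of the 9 were called lower, where 26.8% of all genes were, with 1 at an unadjusted p under 0.05 and 0 called by DESeq2. Without cattle 1, however, RAD21 (-0.74, adjusted p = 0.00654) and STAG2 (-1.25, adjusted p = 0.024) were called lower. In pig STAG3, with 6 UMIs in the other cells, and RAD21L1 passed the minimum only through germ-like cells, while SMC1B and REC8 reached it in the other cells alone, and of these SMC1B was called higher and REC8 was not. Of the mitotic subunits 2 of 5 were called higher in pig, where 17.1% of all 15216 genes tested were, and 1 of 5 lower, where 20.2% were. The median log2 fold change of the mitotic subunits was -0.59 in cattle and 0.44 in pig, beside medians of -0.16 and -0.08 over all genes tested. Since the sums of germ-like and other cells come from the same animals, a model that takes the animal as a replicate block counts as paired. It called 3 of 5 mitotic subunits lower in cattle, where it called 4935 of all 14202 genes lower. The 3 were SMC1A (-0.58, adjusted p = 0.00761), RAD21 (-0.66, adjusted p = 0.000728) and STAG2 (-1.43, adjusted p = 0.000363). Of these, SMC1A and RAD21 have positive values by library size alone without the block.

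The pig values depend on which clusters count as germ-like. When a cluster's markers were set against all remaining cells rather than against the median cluster, pig clusters 9 and 14, with 367 and 533 cells, lost the germ-like name and moved to the other cells, and 658 germ-like cells were left. The contrast of SMC1B was then 0.86 (adjusted p = 0.382), that of STAG3 was 1.70 (adjusted p = 0.236) and that of SMC3 was 0.30 (adjusted p = 0.624), and 0 of the 9 subunits were called higher by edgeR. Of all 15216 genes tested, 808 were called higher under this rule. The cattle germ-like cells were the same 517 by both naming rules. When pig cells with UMIs of at least 2 germ markers were taken in place of clusters, SMC1B stayed called at 2.66 (adjusted p = 0.039) and STAG3 was at 2.82, by edgeR in each case.

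Sertoli-like cells, the somatic cells that share the tubule with germ cells, gave a comparison with 1 named cell type in place of the mix of other cells. In pig these cells were themselves uneven. Cluster 0, led by UBE2C, CDC20 and TOP2A, gave 53 of 124 Sertoli-like cells in pig 1, 53 of 2240 in pig 2 and 2 of 208 in pig 3. SMC1B was at 0, 1.13 and 0.851 CPM in cattle Sertoli-like cells and at 0, 1.40 and 4.54 CPM in those of pig, where pig 1 had 124 such cells. The log2 fold change of germ-like against Sertoli-like cells was 6.84 (SE 0.43, adjusted p = 4.12e-06) in cattle, while in pig it was 6.14 (SE 0.48, adjusted p = 1.93e-06) by edgeR. STAG3 was at 0, 0.324 and 0.851 CPM in cattle Sertoli-like cells, with a change of 5.99 (SE 0.50, adjusted p = 1.23e-05), and pig Sertoli-like cells held 1 UMI of it, so that pig germ-like cells were 67.8 times higher (95% counting interval 11.9 to 2704). Pig STAG3 passed the count minimum there only through germ-like cells, so no test is given for it. REC8 had 3 UMIs in all cattle Sertoli-like cells and was 89.3 times higher in germ-like cells (29.6 to 441), while in pig the change was 1.68 (SE 0.72, adjusted p = 0.0734, edgeR) and was called with the animal as a block (1.41, adjusted p = 0.00687), by library size alone (2.03, adjusted p = 0.0337), without pig 1 (1.70, adjusted p = 0.0427) and without pig 3 (2.82, adjusted p = 0.00814). RAD21L1 had 0 UMIs in Sertoli-like cells of either species, against which it was at least 12.2-fold higher in cattle and at least 2.85-fold higher in pig germ-like cells, taking 3 UMIs over the group as the floor.

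Among the mitotic subunits, SMC1A was at 4.55, 14.7 and 13.9 CPM in cattle Sertoli-like cells. In those of pig SMC1A was at 44.1, 39.2 and 16.3 CPM, with 6 UMIs in pig 1. Its log2 fold change in germ-like cells by edgeR was 1.15 (SE 0.41, adjusted p = 0.0355) for cattle and 1.82 (SE 0.34, adjusted p = 0.00086) for pig. SMC3 was higher by 2.30 (SE 0.41, adjusted p = 0.00101) and 1.25 (SE 0.26, adjusted p = 0.00195), and STAG1 in cattle by 1.28 (SE 0.46, adjusted p = 0.0379). STAG2 was lower in pig germ-like cells by -1.26 (SE 0.28, adjusted p = 0.00273, edgeR), a call lost without pig 2 (-0.60, adjusted p = 0.285) and without pig 3 (-0.95, adjusted p = 0.0692). RAD21 was at 66.7, 134 and 146 CPM in cattle Sertoli-like cells and was not called (-0.84, adjusted p = 0.0621), except with the animal as a block (-0.86, adjusted p = 1.32e-05, edgeR) and without cattle 1 (-1.34, adjusted p = 0.000363), while it was 0.05 by library size alone. The calls of SMC1A and STAG1 in cattle were lost without cattle 2 (adjusted p = 0.193 and 0.221) and without cattle 3 (0.197 and 0.231), and that of STAG1 also without cattle 1 (0.107). Against Sertoli-like cells 3 of 5 mitotic subunits were called higher in cattle, where 32.1% of 13078 genes were. REC8 and RAD21L1 in cattle and STAG3 and RAD21L1 in pig passed the count minimum there only through germ-like cells, so no count is given for the meiotic subunits. In pig 2 of 5 mitotic subunits were called higher, where 22.2% of 14577 genes were, and 1 lower, where 20.3% were.

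**Figure D2:**
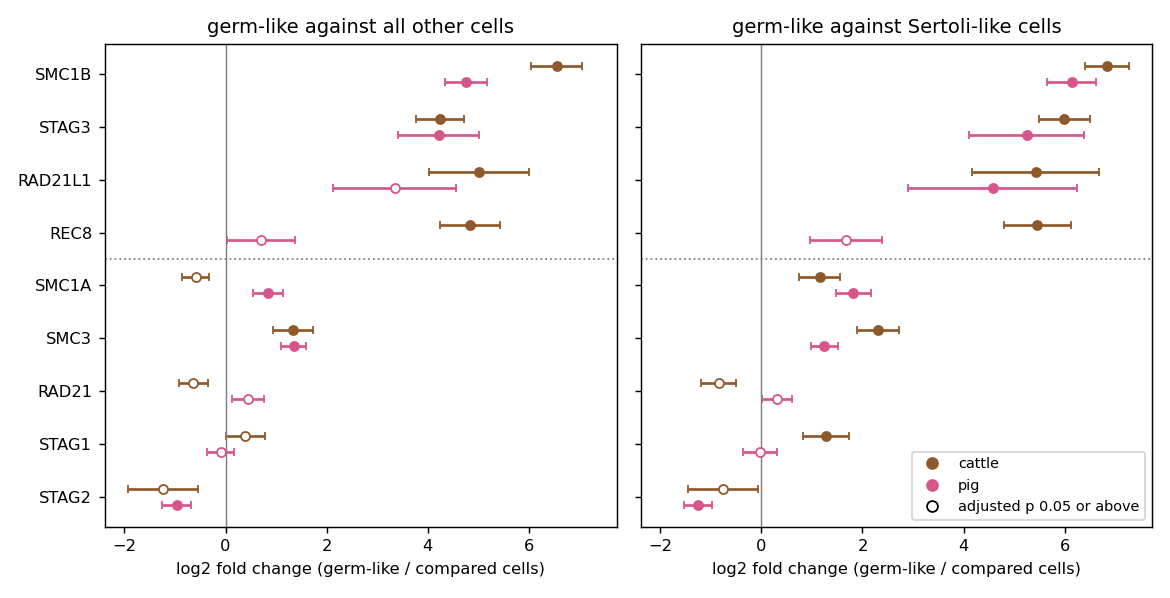
Fitted log2 fold change with its standard error of each subunit in germ-like cells against all other cells (left) and against Sertoli-like cells (right), for cattle (brown) and pig (pink), with open symbols where the adjusted p was 0.05 or above. RAD21L1 rests on 12 and 13 germ-like UMIs and is a description. So are STAG3 of pig in both panels and REC8 of cattle in the right panel, which passed the count minimum only through germ-like cells. REC8 of pig is open in both panels at 0.70 and 1.68, and the cattle and pig values of SMC1A lie on opposite sides of 0 in the left panel.

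Whether the germ-like contrast differed between species was tested by an interaction term in a model of 12 sums. It was called for 2 of the 9 subunits, where 15.4% of the 12769 shared genes were called. The contrast of REC8 was lower in pig than in cattle by -3.93 on the log2 scale (SE 0.9992, adjusted p = 0.0153, edgeR), and that of SMC1A was higher in pig by 1.61 (SE 0.45, adjusted p = 0.0255). Without cattle 2 and without cattle 3 both calls were lost (REC8 adjusted p = 0.0667 and 0.0941, SMC1A 0.128 and 0.067). The SMC1A difference was also lost without pig 1 (adjusted p = 0.0578), without pig 2 (0.066) and by library size alone (0.78, adjusted p = 0.171). With the animal as a block SMC1B (-1.75, adjusted p = 0.00716) and RAD21 (1.28, adjusted p = 0.00251) were called as well. Of all 12769 shared genes, 2027 were then called higher in pig and 1474 lower. Species, age, genome annotation and the stage of the germ cells differ together between the groups and cannot be told apart.

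The share of a paralog group's UMIs that came from the meiotic member does not depend on how sums are scaled. SMC1B made up 81.7%, 80.9% and 78.9% of the SMC1A and SMC1B UMIs in cattle germ-like cells and 0%, 3.26% and 2.74% in the other cells. In pig it made up 59.6%, 51.4% and 55.7% in germ-like cells and 4.63%, 8.62% and 7.85% in the others. The difference was 78.5 percentage points (SD of the differences within animals 2.84, n = 3) in cattle and 48.5 (SD 6.14) in pig. It was positive in 3 of 3 animals of each species. An exact two-sided permutation test that took the sums as unpaired gave p = 0.1 in each species, the lowest p possible with 3 against 3. The cattle 1 value of 0 of 92 UMIs has an exact 95% Clopper-Pearson limit of 3.93%.

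STAG3 made up 76.9%, 78.4% and 77.6% of the UMIs of the 3 stromal antigen genes in cattle germ-like cells and 30.8%, 4.85% and 12.5% in the others, where the highest value, of cattle 1, rests on 8 of 26 UMIs (exact 95% interval 14.3% to 51.8%). In pig it made up 4.82%, 7.14% and 5.36% in germ-like cells and 0.331%, 0.0393% and 0.409% in the others. The groups did not overlap in either species (exact permutation test, p = 0.1 in each). STAG1 and STAG2 had higher CPM in every pig sum than in any cattle sum of the same kind of cells, in germ-like and other cells alike, and the gene models of the 2 builds differ, so that the species' shares cannot be compared as transcript ratios.

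REC8 and RAD21L1 together made up 10.8%, 18.1% and 11.2% of the UMIs of the 3 kleisin genes in cattle germ-like cells and 0%, 0.387% and 0.262% in the others. In pig they made up 14.8%, 3.90% and 18.5% in germ-like cells and 8.88%, 3.43% and 16.0% in the others. The cattle groups did not overlap (exact permutation test, p = 0.1), while the pig groups did, with a difference of 2.93 percentage points (SD 2.74, exact permutation test of unpaired sums, p = 0.7). The share was nevertheless higher in the germ-like cells of 3 of 3 pigs, and without pig 1 the difference was 1.45 percentage points. With pig clusters 9 and 14 among the other cells, the pig differences were 24.1 percentage points for the share of SMC1B and -5.17 for the kleisins, and with cells of at least 2 germ markers they were 32.6 and -0.188. Pig 2 had the lowest kleisin share in both of its sums and pig 3 the highest.

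**Figure D3:**
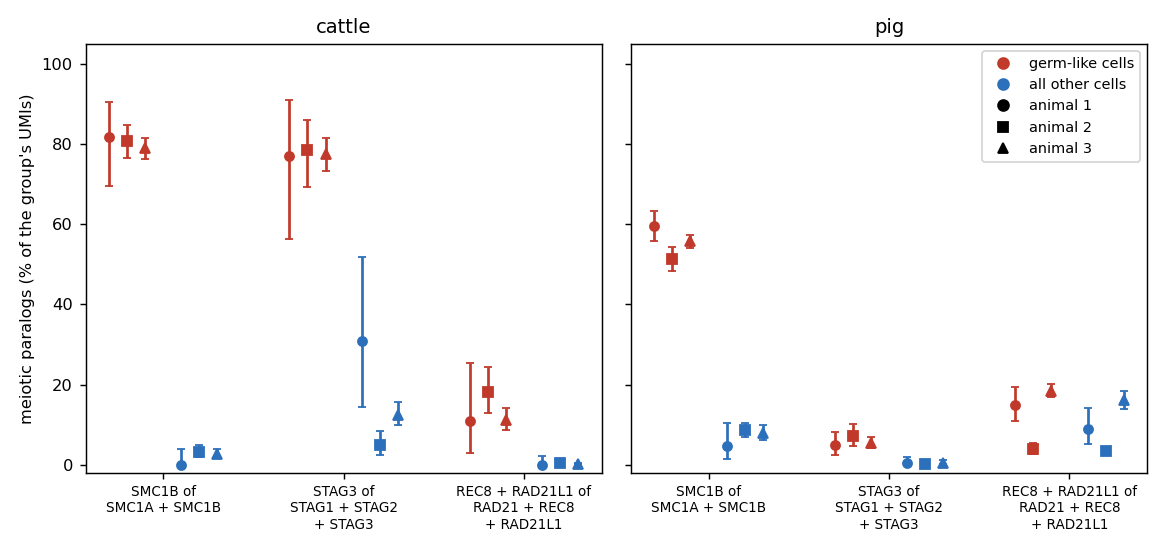
Meiotic members as a percentage of the UMIs of each paralog group in germ-like (red) and other cells (blue), 1 symbol per animal with its exact 95% binomial interval. Cattle germ-like cells lie between 76.9% and 81.7% for SMC1B and STAG3, and pig germ-like cells between 51.4% and 59.6% for SMC1B and between 4.82% and 7.14% for STAG3.

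Across the named cell types, germ-like cells had the highest SMC1B level in both species, and the ranges of the other cell types, from 0 to 8.69 CPM in cattle and from 0 to 13.8 CPM in pig, did not reach it. All somatic neighbours in the order overlapped. STAG3 was likewise highest in germ-like cells, with 61.2 to 88.4 CPM in cattle germ-like cells and up to 4.79 CPM in any other cattle cell type, and 5.51 to 7.90 CPM against up to 3.54 CPM in pig. Small sums limit this order, since the level worth 3 UMIs was above the lowest germ-like STAG3 level in 1 of 18 other cattle sums, at 167 CPM, and in 7 of 15 pig sums, at 7.60 to 29.7 CPM. The same held for REC8 in 4 of 18 cattle sums and 4 of 15 pig sums. The cattle droplets with at most 50 UMIs, which hold mostly free RNA, carried SMC1B at 5.91, 12.8 and 13.2 CPM and STAG3 at 8.87, 5.48 and 8.43 CPM. The SMC1B and STAG3 levels of all other cattle cells combined lay below these values in each animal.

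REC8 gave a different order in the 2 species. In cattle germ-like cells led at 13.7 to 23.0 CPM, and no other cell type exceeded 0.625 CPM. In pig endothelial-like cells had the highest mean, with 11.4 CPM in pig 2 and 39.2 CPM in pig 3, followed by germ-like cells at 9.66 to 32.9 CPM, myoid-like cells at 7.40 and 21.7 CPM and Leydig-like cells at 3.54 to 22.8 CPM. These neighbours overlapped, and in each cell type with both animals pig 3 was above pig 2. The share of endothelial-like cells ranged from 0.0633% in pig 1 to 15.9%, so that the mix of other cells differed between pigs, and its part in the contrast was not tested.

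The mitotic subunits had no common order. SMC1A was highest in myoid-like cells in cattle at 52.4 to 65.0 CPM, which overlapped germ-like cells, and lowest in Sertoli-like cells at 4.55 to 14.7 CPM. In pig it was highest in germ-like cells, and Sertoli-like cells at 16.3 to 44.1 CPM were again lowest and stood apart from the next cell type. SMC3 was highest in germ-like cells of both species, above every other cell type. STAG1 was highest in germ-like cells in cattle without overlap, although 3 UMIs were worth more than its lowest germ-like level in 6 of 18 other sums, and in pig its germ-like range overlapped those of endothelial-like, myoid-like and Sertoli-like cells and lay below that of lymphocyte-like cells. STAG2 was lowest in pig germ-like cells by mean level, where it overlapped endothelial-like cells at 58.4 and 83.0 CPM. RAD21 overlapped between germ-like cells and the next cell type in both species.

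**Figure D4:**
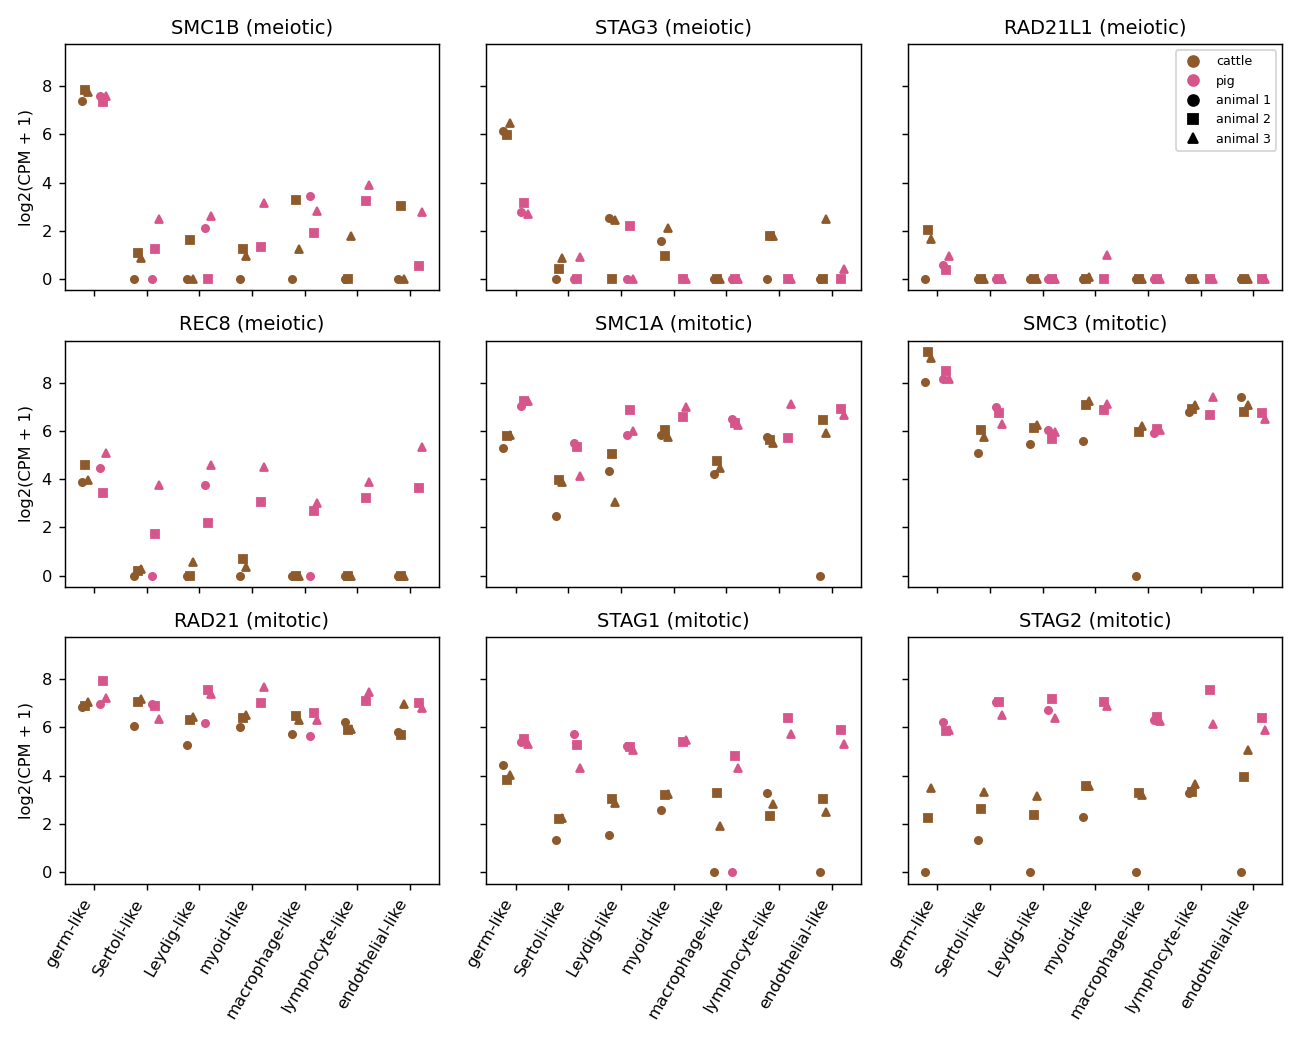
Levels as log2(CPM + 1) of each subunit by named cell type, 1 symbol per animal with at least 20 cells of the type, cattle in brown and pig in pink. SMC1B and STAG3 stand out in germ-like cells, pig REC8 is spread over several somatic cell types, and SMC3 is highest in germ-like cells of both species.

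Counted per cell, an SMC1B UMI was found in 39.0%, 64.5% and 87.6% of germ-like cells in cattle 1, 2 and 3 and in 0%, 0.265% and 0.475% of the other cells. In pig the shares were 39.3%, 74.4% and 85.0% in germ-like cells and 0.198%, 2.17% and 3.45% in the others. Germ-like cells were deeper, with a median of 3554.5, 6180 and 16908 UMIs in cattle against 779.5, 1657 and 4380.5 in the other cells. After each cell was thinned to 500 UMIs, SMC1B was found in 10.98%, 11.06% and 8.72% of cattle germ-like cells and at most 0.0505% of the others, and in 7.94%, 6.51% and 8.99% of pig germ-like cells and at most 0.391% of the others. Thinning left out 323 other cells of cattle 1, which were shallower than 500 UMIs, and none of the other groups. The spread between animals in the unthinned shares thus narrowed at equal depth. Both SMC1 paralogs were found together in part of the cells. Of the SMC1B-positive germ-like cells, 6 of 32, 40 of 140 and 104 of 191 in cattle 1, 2 and 3 also had an SMC1A UMI, and 90 of 252, 114 of 160 and 467 of 596 did so in pig 1, 2 and 3. SMC1A UMIs were found in 2.71%, 7.30% and 15.6% of the other cells in cattle and in 3.89%, 21.6% and 33.0% in pig. No cell type here should lack SMC1A, and the cattle droplets of free RNA held it at 11.8 to 22.9 CPM, so no background share is given for cells with both.

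Germ-like cells formed 1 cluster in cattle and 6 in pig, which allowed the pig subunits to be described by cluster for sums of at least 20 cells. The listed genes, all 9 subunits included, were kept out of the variable genes used for clustering, but clusters are no independent groups and no test was made. Cluster 11, led by TEX101, LYPD4 and the synaptonemal gene SYCP1, and cluster 14, led by COX8C and PLD6 and with SMC1B among its 10 leading genes, had the highest SMC1B levels. These were 309 and 276 CPM for cluster 11 and 307 and 246 CPM for cluster 14 in pig 1 and pig 3, against 110 to 171 CPM in clusters 9, 12, 13 and 27. REC8 was at 49.4 and 39.5 CPM in cluster 11 and 65.2 and 46.7 CPM in cluster 14, against 0 to 19.9 CPM in the other 4.

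RAD21 ran the other way. It was at 24.7 and 39.5 CPM in cluster 11 and 37.3 and 99.3 CPM in cluster 14, against 122.6 to 291 CPM in the other 4 clusters. REC8 and RAD21L1 therefore made up 71.4% (5 of 7 UMIs, exact 95% interval 29.0% to 96.3%) and 52.6% (20 of 38 UMIs, 35.8% to 69.0%) of the kleisin UMIs in cluster 11, and 63.6% and 32.4% in cluster 14, against 0% to 10.96% in the others. SMC1A followed another split, with 24.6 to 57.0 CPM in clusters 11, 12 and 27 and 137 to 175 CPM in clusters 9, 13 and 14. SMC1B thus made up 78.8% to 86.2% of the SMC1 UMIs in clusters 11, 12 and 27 and 46.6% to 69.2% in clusters 9, 13 and 14.

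The summed levels of 4 gene lists also differed between these clusters. The summed genes of the axis list reached 1234 and 1368 CPM in cluster 11 and 72.5 to 320 CPM elsewhere. Beside HORMAD1, HORMAD2, SYCP2 and SYCP3 this list holds TEX11 and the synaptonemal gene SYCP1, itself a leading gene of cluster 11. The summed genes of meiotic entry reached 618 and 773 CPM in cluster 14, 543 and 520 CPM in cluster 11 and 135 to 366 CPM in the others. This list holds STRA8, which starts the meiotic programme, SPO11, which makes the breaks for recombination, and DMRT1. Over all pig germ-like cells DMRT1 averaged 356 CPM, against 10.3 CPM for STRA8 and 8.54 CPM for SPO11. In the other pig cells DMRT1 averaged 42.8 CPM. The sum is thus no measure of STRA8, of SPO11 or of entry into meiosis by cluster. DMRT1 was also a leading gene of clusters 13 and 14. The summed cell division genes reached 765 and 759 CPM in cluster 11 and 565 and 846 CPM in cluster 14, against 145 to 482 CPM in the others, while the spermatogonial genes were lower, at 24.7 and 19.7 CPM in cluster 11 and 27.9 and 104.7 CPM in cluster 14, against 107 to 215 CPM. STAG3 was highest in cluster 27, at 17.0 and 19.9 CPM. Cluster 15, of 319 cells with 307 from pig 2, was led by UCHL1 and ELAVL2 and stayed unnamed among the other cells, and pig 2 had 68.3 CPM of SMC1B there, or 71 of the 91 SMC1B UMIs of its other cells. With all unnamed cells left out the pig contrast of SMC1B was 5.32 (adjusted p = 0.00075, edgeR).

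**Figure D5:**
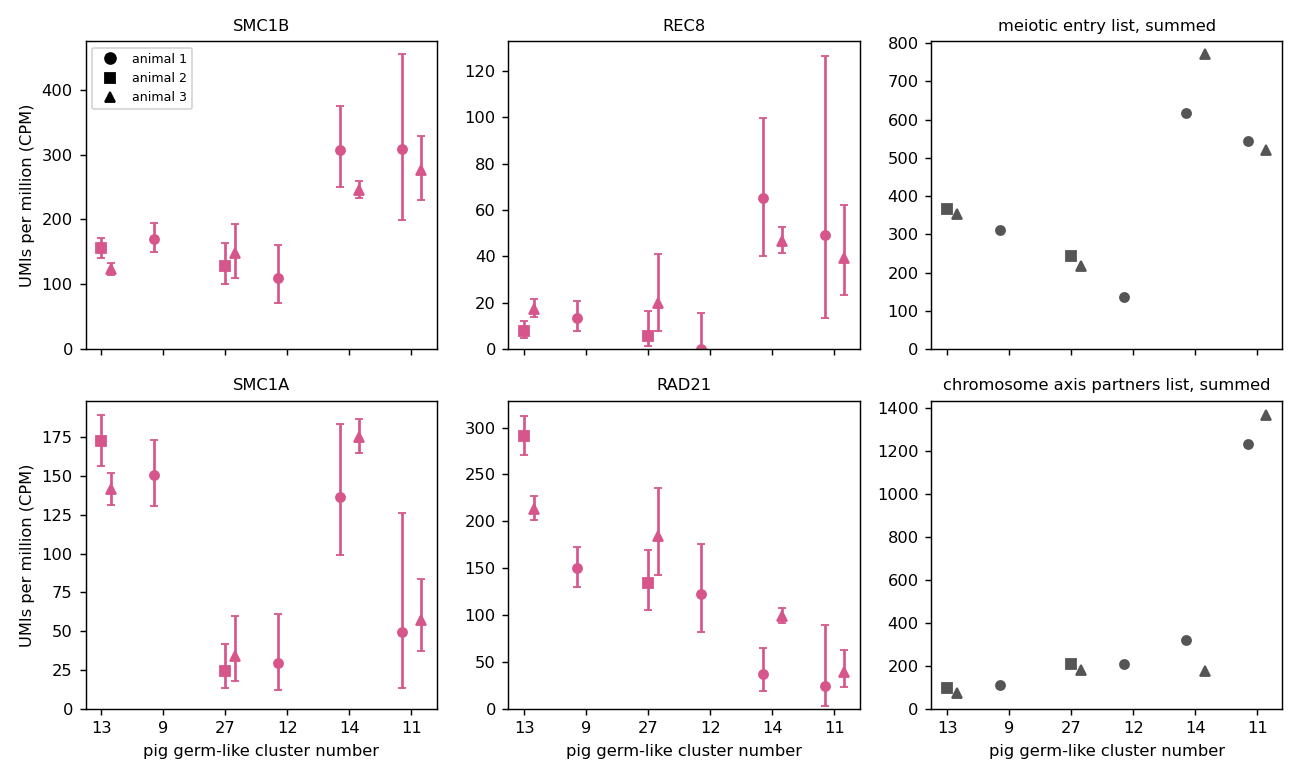
Levels in CPM by pig germ-like cluster for SMC1B, REC8, SMC1A and RAD21 with exact 95% Poisson intervals, and the summed CPM of the meiotic entry and chromosome axis lists in grey, 1 symbol per animal with at least 20 cells. The meiotic entry list includes DMRT1, so its sum is no measure of entry into meiosis, and the axis list includes SYCP1 and TEX11. Clusters 14 and 11 hold the highest SMC1B and REC8 and the lowest RAD21 values, and SMC1A is low in clusters 27, 12 and 11.

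The genes that surround cohesin were followed as lists, whose counts stand beside the 23.2% of all genes called higher in cattle and 17.1% in pig. Calls of list genes come from the main fit and are not given here without single animals or under the other pig naming rule. Of all pig genes tested, 2605 were called higher in the main fit, 1497 without pig 1 and 808 under the other naming rule. In the list of 6 axis partners, SYCP1, SYCP2, SYCP3 and HORMAD1 were called higher in germ-like cells of both species and TEX11 in those of cattle. HORMAD2 in both species and TEX11 in pig passed the count minimum only through germ-like cells, so no count is given for this list. In any sum of other cells HORMAD2 reached at most 0.328 CPM in each species and TEX11 0.219 CPM in pig. SYCP1 was at 197 ± 79.0 CPM (SD, n = 3) against 0.685 ± 0.702 CPM in cattle and 66.3 ± 17.2 CPM against 3.89 ± 2.48 CPM in pig. HORMAD1, an axis protein that monitors pairing, was at 4.74 (SE 0.49, adjusted p = 6.63e-05) and 2.45 (SE 0.65, adjusted p = 0.0178) on the log2 scale by edgeR. The median log2 fold change of all 6 listed genes was 4.67 in cattle and 3.62 in pig, beside -0.16 and -0.08 over all genes tested. It includes HORMAD2 and TEX11 and is a description. Of the genes for cohesin protection and cleavage, 5 of 6 tested were higher in cattle and 3 of 6 in pig. The one called lower in cattle, the phosphatase subunit PPP2R5C, was at -1.003 (adjusted p = 0.032, edgeR) and at 0.11 (adjusted p = 0.807) by library size alone. SGO1 and SGO2, the shugoshins that shield centromeric cohesin from separase, were higher in both species, SGO1 by 3.12 (SE 0.41, adjusted p = 0.000236) and 1.53 (SE 0.42, adjusted p = 0.0208) and SGO2 by 1.35 (SE 0.47, adjusted p = 0.0373) and 1.83 (SE 0.31, adjusted p = 0.00293). PTTG1, the securin, and ESPL1, the separase that cuts the kleisin, were higher in cattle by 1.90 (SE 0.31) and 2.83 (SE 0.50), and MEIKIN, the meiotic kinetochore protector, in pig by 2.05 (SE 0.60). Symbols for MEIKIN in cattle and PTTG1 in pig were not in the gene tables.

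Of the acetylation genes, ESCO2, which acetylates SMC3 in S phase, was higher in both species, by 1.604 (SE 0.54, adjusted p = 0.0324) in cattle, while in pig it was 1.93 (SE 0.49, adjusted p = 0.015). HDAC8, the enzyme that removes this mark, was lower in both, by -3.93 (SE 0.62, adjusted p = 0.000692) and -2.86 (SE 0.58, adjusted p = 0.00604), from 7.80 ± 1.48 CPM in other cells to 1.83 ± 1.46 CPM in germ-like cells in cattle and from 5.71 ± 1.504 to 1.04 ± 0.391 CPM in pig. DDX11, a helicase needed for cohesion, was called in pig at 1.85 (SE 0.43, adjusted p = 0.0107) and was at 1.67 (SE 0.76, adjusted p = 0.0957) in cattle, by edgeR. Of the 7 genes for loading and release, 2 were higher in cattle, near the share of all genes, CDCA5 (sororin, which stabilises the ring) by 1.96 (SE 0.59) and WAPL (which opens it) by 1.34 (SE 0.43), and 0 in pig by edgeR, with 2 at an unadjusted p under 0.05 and 1 called by DESeq2. Of the 13 condensin and SMC5/6 genes, 7 were higher in cattle and 3 in pig, where the count is near the share of all genes, and NSMCE1 was called lower in cattle (-0.72, adjusted p = 0.0183, edgeR) with a value of 0.42 by library size alone (adjusted p = 0.124). Among these genes SMC4, NCAPG and NCAPH were higher in both species. Cell division genes were higher in 4 of 7 tested in each species, among them CCNB1, BUB1, CENPF and PLK1 in both.

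Of the genes of the PRC1.6 repressor, which silences SMC1B, STAG3 and other germline genes in mouse embryonic cells, 2 of 8 were higher in cattle, E2F6 by 2.45 (SE 0.28, adjusted p = 0.000114) and MAX by 1.10 (SE 0.34, adjusted p = 0.0233). In pig 1 of 7 was higher, and both counts are near the shares of all genes. It was TFDP1, a partner of E2F proteins, by 1.93 (SE 0.37, adjusted p = 0.00486). Of the meiotic entry genes 5 of 8 tested were higher in pig, among them DMRT1, STRA8, SPO11 and DMC1. In cattle STRA8 and MEIOB were called higher. Cattle SPO11, DMC1 and MEIOC passed the count minimum only through germ-like cells, so no cattle count is given for the meiotic entry list. Of the spermatogonial genes GFRA1, ETV5, ZBTB16 and SALL4 were called higher in cattle and SALL4 in pig. LIN28B passed the count minimum only through germ-like cells in both species, so no count is given for this list. It reached at most 0.103 CPM in any sum of other cells in cattle and 0.128 CPM in pig.

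The neighbours of the promoters were read in the same fits. RIBC2, which starts on the other strand beside SMC1B, had 19 UMIs in cattle germ-like cells and 2 in other cells, and in pig reached 9.79, 6.44 and 13.95 CPM in germ-like and 0, 0.256 and 0.328 CPM in other cells. The other pig cells held 7 UMIs of it. In both species RIBC2 passed the minimum of 10 counts only through germ-like cells, so its values are a description. RIBC1, beside SMC1A, was not called against the other cells in either species (0.15, adjusted p = 0.931, and 1.34, adjusted p = 0.183). FAM118A, which overlaps SMC1B on the opposite strand in the pig annotation, was higher in cattle germ-like cells by 2.02 (SE 0.26, adjusted p = 0.000232, edgeR) and not in pig (0.08, adjusted p = 0.915). Reads from overlapping genes can be counted for either where strand is not used, and the use of strand is not given in the sources used here.

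The genes whose levels followed each meiotic subunit most closely were named by the Pearson correlation of log2(CPM + 10) over all sums of a cell type and an animal, 21 in cattle and 18 in pig. These sums share libraries, and the few germ-like sums set most of each value, so no p is given. For SMC1B they were STK31, RAD9B and CYCT in cattle (r = 0.993, 0.991 and 0.988) and AMZ2, SCG3 and CHRNA5 in pig (0.973, 0.970 and 0.970). For STAG3 they were RBM20, FKBP6 and SCG3 in cattle (0.985, 0.984 and 0.983) and DPYSL5, A1BG and PLD5 in pig (0.972, 0.965 and 0.957). For REC8 they were ERICH5, CRYGD and SNAP91 in cattle (0.999 each) and KRT7, HERC5 and RUVBL2 in pig, where the values were lower (0.849, 0.829 and 0.813). RAD21L1 had fewer than 50 UMIs in both species and was not compared.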

How the data were processed

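Testes removed at castration were dissociated, and roughly 8000 live cells per animal went into 10x 3′ sequencing with version 2 chemistry. Reads were aligned by the authors in Cell Ranger 2.1.0 to ARS-UCD1.2 for cattle and Sscrofa11.1 for pig, and the authors deposited raw UMI counts per gene and barcode. The headers of the deposited pig matrices name software version 3.0.2. The deposited files held 5805223 to 53325608 UMIs in cattle and 6245189 to 40099873 in pig.

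Cells were called in each library as barcodes with at least the 99th percentile of the UMIs of the top 3000 barcodes divided by 10 (460 to 3458 UMIs) and at least 200 genes. Doublets were removed by Scrublet score at an assumed 0.8% per 1000 cells, 41 to 613 a library, since the automatic threshold marked between 1 and 545. Libraries shared 8 to 61 barcodes over 15 pairs. Each species was clustered with scanpy 1.11.5 (2000 variable genes without the listed genes, 30 components, Leiden resolution 1), giving 23 clusters in cattle and 29 in pig, of which 14 in each held over 90% cells of 1 library. A cluster was named for its best-scoring cell type where at least 3 markers of that type were found in at least 5% of its cells and at least 2 times the median cluster. It stayed unnamed where its 10 leading genes held more markers of another type, as in pig clusters 7 and 15. So did a cluster far shallower than its libraries with no own marker leading, and a somatic one that shared at least 3 leading genes with a germ-like cluster. A further condition was added after the clusters were seen: a cluster with no own marker among its 10 leading genes that shared at least 3 leading genes with a cluster of another type stayed unnamed.

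UMI counts were summed per animal and cell group. Sums were compared with edgeR 4.0.16 in R 4.3.3 (quasi-likelihood test, TMM, genes with at least 10 counts, Benjamini-Hochberg adjustment, called at an adjusted p under 0.05). Paralog shares were compared by exact two-sided permutation tests of unpaired sums (scipy 1.17.1). Alternatives were DESeq2 1.42.0, library size alone, no filter, a replicate block, other cell calling, resolution, naming and doublet settings, and leaving out animals. Numbers pair the sums, which come from 1 library: deviations from group means correlated at 0.449 to 0.574 in cattle (11534 genes) and 0.319 to 0.498 in pig (12888 genes). On simulated counts the test recovered 67% of 200 changed genes in the cattle comparison with other cells (13962 genes) and 49% in that of pig (14990 genes), 69.5% and 67.5% in those of cattle and pig with Sertoli-like cells (12836 and 14257 genes) and 18.5% in the species interaction (12659 genes). Of the calls made there, 11.3%, 10.9%, 10.3%, 19.6% and 5.13% in that order were genes that had not been changed. Every planted change was larger than the fitted changes of SMC3, pig SMC1A and pig STAG2 against other cells. Far fewer genes were changed than were called in the data, so these shares do not give the recovery or error of such calls. Calls near the threshold remain the least firm. With 95% confidence, intervals cover counting error only, and 3 counts served as the floor.

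All 9 subunits were named whatever their values, with the 3 genes most like each meiotic subunit (at least 50 UMIs) and up to 4 called genes a list by smallest p. The members and lists were chosen with earlier results of these data known.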

Additional observations from a re-analysis of the deposited data

Results flagged for a closer look

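The germ-like contrast differed between the species by the interaction test for 2 of the 9 subunits. For REC8 the difference, pig minus cattle, was -3.93 on the log2 scale (SE 0.9992, adjusted p = 0.0153, edgeR), with higher CPM in the germ-like cells of 3 of 3 animals in both species, and it lay between -4.80 and -3.38 over the alternatives. For SMC1A the difference was 1.61 (SE 0.45, adjusted p = 0.0255, edgeR), also with higher CPM in the germ-like cells of 3 of 3 animals in both species, and it lay between 0.78 and 1.81. Over these alternatives the adjusted p ranged from 5.56e-05 to 0.0941 for REC8 and from 0.000393 to 0.171 for SMC1A. In pig both values depend on the clusters that count as germ-like, since REC8 was at -0.63 and SMC1A at -0.0552 when clusters 9 and 14 counted as other cells.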

How the results depend on the processing

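With the animal as a replicate block, cattle gave 3 mitotic subunits lower against other cells and 1 against Sertoli-like cells, and the species interaction gave 4 subunits. Of all genes the block called 4935 of 14202 and 3424 of 13078 lower in these cattle fits. In the interaction it called 2027 of 12769 higher in pig and 1474 lower. The block changed no other count of calls by over 1.5 times, and pig STAG1 against Sertoli-like cells became 0.0199. By library size alone 2 mitotic subunits were higher in cattle and 0 lower in pig, where 6252 of 14202 cattle genes were higher and 2261 of 15216 pig genes lower. The sign changed for cattle SMC1A (0.53) and RAD21 (0.48), for cattle RAD21 (0.0536) and STAG2 (0.0779) against Sertoli-like cells, for pig STAG1 (0.25, and 0.36 against Sertoli-like cells) and for the interactions of STAG3 (-0.56), SMC3 (-0.64) and STAG2 (-0.37). With markers compared with all other cells, 0 meiotic and 0 mitotic subunits were higher in pig, where 808 of 15216 genes were. REC8 was then at -0.63, SMC1A at -0.0552 and STAG1 at 0.0354, and the share difference was 24.1 percentage points for SMC1B and -5.17 for the kleisins. With cells of 2 germ markers these shares were 32.6 and -0.188. In pig 1 mitotic subunit was higher with no filter, at resolution 2, with 2 germ markers and with unnamed cells left out, and STAG1 was at 0.0034 by DESeq2. In that order 2576 of 18208, 2426 of 15216, 1398 of 15216 and 2612 of 15124 genes were higher. The cause of these changes was not tested.

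Leaving out 1 animal gave 0 to 1 mitotic subunits higher and 0 to 2 lower in cattle, and 1 to 2 higher and 0 to 1 lower against Sertoli-like cells. In pig it gave 1 mitotic subunit higher and 0 lower, and against Sertoli-like cells 1 to 3 meiotic subunits higher and 0 to 1 mitotic lower. The meiotic counts include subunits that passed the count minimum only through germ-like cells. The interaction gave 0 to 2 subunits. Against other cells, leaving out 1 animal gave 1527 to 4126 of all genes higher and 2065 to 4348 lower in cattle. In pig it gave 890 to 1544 higher and 1447 to 1979 lower. Pig STAG1 ranged from -0.140 to 0.0386, with its sign changed without pig 2, and against Sertoli-like cells it changed sign without pig 1, 2 or 3 (0.11, 0.61 and 0.0968). The interaction of STAG3 ranged from -0.669 without pig 2 to 1.25 without pig 3 and was also below 0 without cattle 1 (-0.0317), and that of STAG2 ranged from -0.0375 without cattle 2 to 1.37 without cattle 3. RAD21L1 could not be fitted in every such setting because too few UMIs were left. Over all subunits and alternatives, 18 cattle values came from the same cells as the values reported and were identical, and of the rest 299 values kept their direction and their side of the threshold, 34 lost and 18 gained a call, and 21 changed sign.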
